A study of Mus musculus with 14 samples.

Results

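Cholesterol and fatty acids are built from the same cytosolic acetyl-CoA by separate enzyme chains. In the cholesterol chain Hmgcs1 acts early in the mevalonate pathway, and Mvk, Pmvk, Mvd, Idi1 and Fdps make the isoprenoid units. Fdft1 and Sqle commit these units to sterols, and the enzymes from Lss to Dhcr7 shape the ring and side groups. In the fatty acid chain Acly and Acss2 supply acetyl-CoA, Acaca and Fasn build palmitate, Scd1, Scd2, Fads1 and Fads2 add double bonds, and Elovl5 and Elovl6 lengthen the chain. The transcription factors Srebf1 and Srebf2, held in the endoplasmic reticulum with their escort protein Scap, drive both chains, Srebf2 mainly the sterol genes and Srebf1 mainly the fatty acid genes. The small intestine is known as a site of cholesterol synthesis, and its absorptive cells also take up sterols and fatty acids from food.

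The genes described here are 34 listed members of these chains, chosen by name, and a probe set was used where the array annotation gave it exactly 1 gene symbol, that of a member. By this rule 32 members were on the arrays, of 12393 genes in all, through 62 probe sets, and 12 of them had a single probe set. Insig1 and Acat2 had no such probe set and are not analysed here. The 32 were 17 cholesterol synthesis enzymes, 4 genes of sterol sensing, transcription and transport (Srebf1, Srebf2, Scap and the sterol carrier Stard4), and 11 genes of fatty acid synthesis, desaturation and elongation.

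The study, on gene regulation between crypt and villus, measured RNA from mouse small intestine on 14 single-colour arrays. Crypts are the epithelial pockets where cells divide, and villi are the projections covered by absorptive cells. Crypts (replicates 12, 21 and 41) and villi (replicates 12, 41 and V275) were each isolated from C57BL/6 mice aged 12 weeks, each array from 1 mouse, and no treatment or mutant allele given. Endoderm, the future epithelium, and mesenchyme, the future connective tissue and muscle, were dissected at embryonic day 12 (E12) from collagenase-digested gut, each array being a pool of 10 to 12 fetuses, or of 35 for 1 pair, and the labels give no strain for them. The 6 adult arrays and the pair from 35 fetuses form 1 table of 8 arrays, and the other 6 E12 arrays form a second table. Values are log2 signals, so a difference of 1 is a 2-fold change, and levels are never compared between the tables or between genes.

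In the 8-array table the 30th percentile of all signals was 5.78, and in the 6-array table it was 4.74. A gene was tested where it passed that level in at least 3 arrays, which all 32 members did in the 6-array table and 31 in the 8-array table. Acaca, the carboxylase that makes malonyl-CoA, has a single probe set that ran from 5.16 to 5.93 in the 8-array table and was not tested there. The labelled tissues were checked on 8 epithelial markers, whose median was 11.48 to 11.62 in crypts, 12.32 to 12.55 in villi, 11.6 in the 3 E12 endoderm arrays of the 6-array table and 6.32 to 6.87 in its mesenchyme arrays. The median of 5 villus enterocyte markers was 5.81 to 6.01 in crypts and 10.8 to 12.5 in villi. In whole tissue, fewer cells of a type and less RNA per cell cannot be told apart.

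Promoter sequence is shown because the members are known to share sterol-responsive control. RefSeq promoters (build GRCm38.p6, 250 bases before to 50 after each start) were at hand for 27 of the 34 members. The motifs searched, on both strands, were the sterol regulatory element core TCACNCCAC, known as the binding site of the SREBP factors, the letters CCAAT, known as the binding site of their partner NF-Y, and the E-box CACGTG. None of these motifs contains another. A CCAAT match lay in the window of 14 of 15 cholesterol enzymes (93.3%) and 5 of 8 fatty acid genes (62.5%), against 41.1% of the 27025 genes with a promoter. An E-box was found in 6 of 27 members, against 8.09% of genes, and the element core in 1, Hmgcs1, against 1.44%. The 4 stretches shown lie within these windows, in the direction of the gene, and capitals mark the matches to the element core or, on either strand, to the NF-Y motif. They belong to the HMG-CoA synthase Hmgcs1, the isoprenoid isomerase Idi1, the C4 sterol oxidase Msmo1 and fatty acid synthase. In Fasn 2 of the NF-Y matches, on opposite strands, overlap. These are matches of letters and not measured binding.

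Hmgcs1, chr13:119690191-119690350, plus strand: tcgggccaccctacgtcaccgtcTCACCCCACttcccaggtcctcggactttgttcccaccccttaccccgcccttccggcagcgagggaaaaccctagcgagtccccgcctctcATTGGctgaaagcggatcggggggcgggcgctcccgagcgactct
Idi1, chr13:8885446-8885605, plus strand: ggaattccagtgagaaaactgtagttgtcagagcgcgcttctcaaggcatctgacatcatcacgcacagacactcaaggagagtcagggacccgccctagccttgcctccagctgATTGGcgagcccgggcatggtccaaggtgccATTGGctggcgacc
Msmo1, chr8:64733579-64733758, minus strand: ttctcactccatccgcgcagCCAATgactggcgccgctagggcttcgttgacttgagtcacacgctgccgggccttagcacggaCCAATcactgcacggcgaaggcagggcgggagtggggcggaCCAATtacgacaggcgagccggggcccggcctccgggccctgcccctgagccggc
Fasn, chr11:120824548-120824707, minus strand: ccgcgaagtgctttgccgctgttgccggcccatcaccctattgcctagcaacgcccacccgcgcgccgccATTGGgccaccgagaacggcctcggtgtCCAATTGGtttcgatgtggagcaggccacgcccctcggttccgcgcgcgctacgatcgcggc

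The members fell into different patterns along the path from E12 endoderm to adult crypt and villus. In the group means of the 8-array table, 7 of 10 tested fatty acid genes (Acly, Fasn, Scd2, Elovl5, Elovl6, Fads1 and Fads2) ran from E12 endoderm through crypt down to villus, an order held by 25% of all 10081 genes tested. Of the 17 cholesterol enzymes, 10 also had their highest level in E12 endoderm but were lower in crypt than in villus (Hmgcs1, Idi1, Fdps, Fdft1, Sqle, Cyp51, Msmo1, Nsdhl, Pmvk and Dhcr7), an order held by 11.6% of genes. E12 endoderm had the highest mean for 13 of 17 cholesterol enzymes and 7 of 10 fatty acid genes, against 36.6% of genes. E12 endoderm is 1 array in this table, so these orders of means are a description and neighbouring levels often lay within the spread between arrays.

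**Figure D1:**
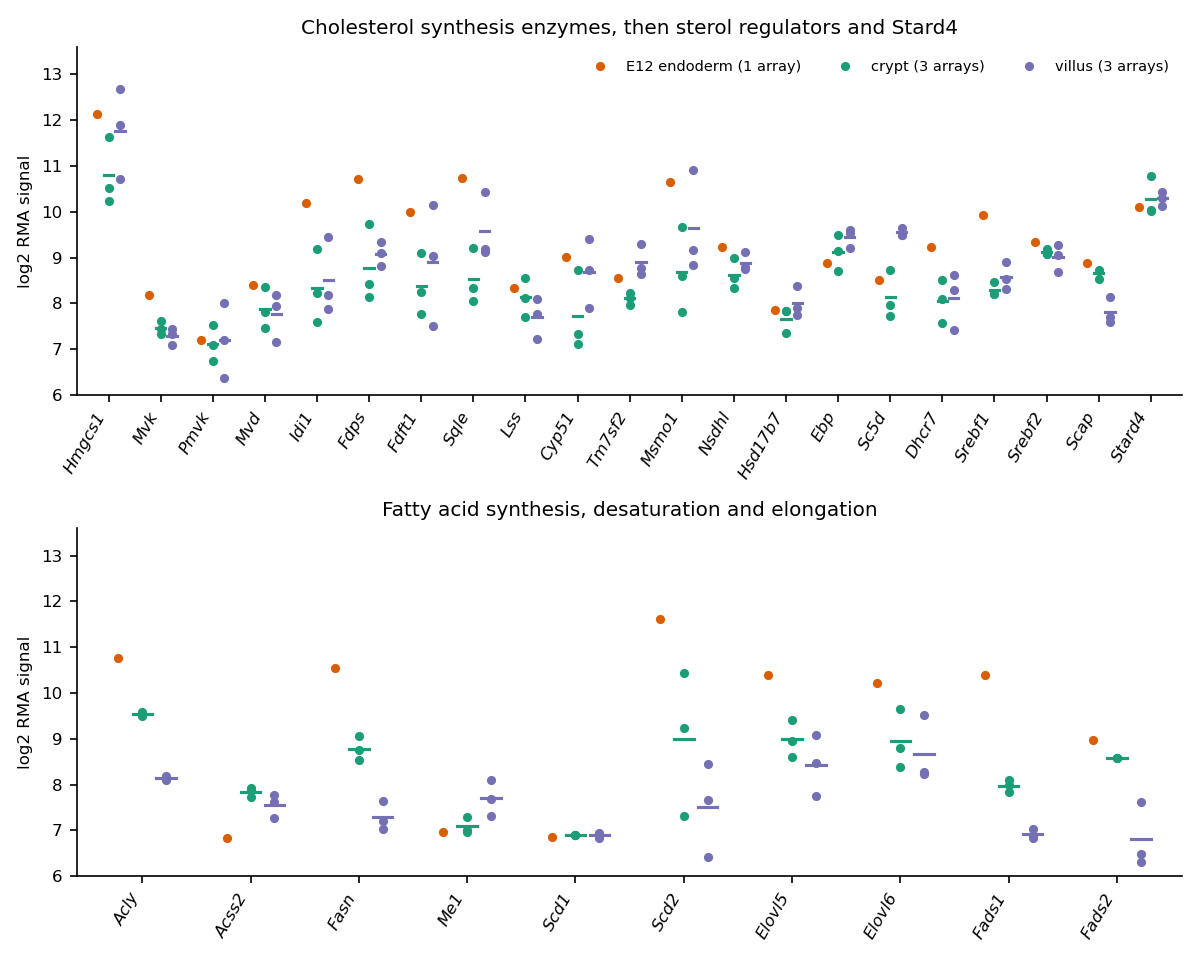
Log2 signal of each member in the 8-array table, 1 point per array: E12 endoderm (1 array), crypt (3) and villus (3), with short lines at the means of crypt and villus. Fatty acid genes such as Fasn and Fads1 step down from E12 endoderm to crypt to villus, while cholesterol enzymes such as Sqle dip in crypt, and their points within a group lie far apart.

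The first comparison asked how the chains differ between villus and crypt, and only parts of each chain passed the test. Of 31 members tested, 2 were called higher in villus (6.45%, against 16.9% of all 9961 genes tested) and 5 lower (16.1%, against 15% of all genes), by limma with an adjusted p under 0.05. Among the cholesterol enzymes 2 of 17 were higher and 0 lower, with a median difference of 0.33, and at an unadjusted p under 0.05 the counts were 3 and 0. Among the fatty acid genes 4 of 10 were lower and 0 higher (4 and 0 at an unadjusted p under 0.05, limma), with a median of -0.81, and the median of all genes was 0.00. The share of members called was thus near the background for genes that fell and below it for genes that rose.

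The 4 fatty acid genes that fell serve acetyl-CoA supply, palmitate synthesis and desaturation. Acly, which makes acetyl-CoA from citrate, was at 9.49, 9.51 and 9.59 in crypts 12, 21 and 41 and at 8.10, 8.19 and 8.13 in villi 12, 41 and V275. Every villus array was below every crypt array, and the difference was -1.39 ± 0.12 (SE; adjusted p = 0.000365, limma). Fasn, which builds palmitate, was at 8.54, 8.76 and 9.06 in the same crypts and at 7.65, 7.20 and 7.03 in the villi. It also fell without overlap, by 1.49 ± 0.21 (SE) on the log2 scale, or 2.81-fold (adjusted p = 0.0019).

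The desaturases Fads1 and Fads2, which make polyunsaturated fatty acids, both fell. Fads1 was at 8.10, 7.84 and 7.98 in crypts and 7.03, 6.87 and 6.83 in villi (difference -1.06 ± 0.14 SE; adjusted p = 0.0014, limma). Fads2 lay at 8.57 to 8.59 in the crypts but ranged from 6.30 to 7.61 in the villi (difference -1.78 ± 0.32 SE; adjusted p = 0.0053, limma), and its second probe set differed by -0.86. At that second probe set the crypts ranged from 7.45 to 8.05 and the villi from 6.67 to 7.16, so the groups did not overlap at either probe set.

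Scd2, a stearoyl-CoA desaturase, had a mean difference as large as that of Fasn but did not pass the test. It was at 7.32, 9.24 and 10.44 in crypts 12, 21 and 41 and at 8.46, 7.65 and 6.42 in villi 12, 41 and V275. The groups overlapped, and the difference was -1.49 ± 0.79 (SE; adjusted p = 0.20, limma). Scd1, its paralogue, was at 6.82 to 6.94 in all 6 arrays, Elovl6 at 8.38 to 9.65 in crypts and 8.23 to 9.51 in villi, and Elovl5 at 8.61 to 9.40 and 7.76 to 9.08. The remaining 2 tested fatty acid genes, Me1 (0.59 ± 0.36 SE), which makes NADPH, and Acss2 (-0.29 ± 0.17 SE), also did not pass. Me1 passed without villus V275 (0.96; adjusted p = 0.0446, limma), and Acss2 with the median of its probe sets (-0.64; adjusted p = 0.0414, limma).

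The 2 cholesterol enzymes that rose act late in the chain. Sc5d, which sets the C5 double bond of the sterol ring, was at 7.73, 7.97 and 8.72 in crypts 12, 21 and 41 and at 9.50, 9.50 and 9.65 in villi 12, 41 and V275. The groups did not overlap, and the level was 2.66-fold higher in villus (log2 difference 1.41 ± 0.25 SE; adjusted p = 0.0049, limma). Its second probe set, at 6.98 to 7.28 in all 6 arrays, differed by 0.09. Tm7sf2, a C14 sterol reductase, was at 7.97 to 8.23 in crypts and 8.63 to 9.31 in villi (difference 0.79 ± 0.20 SE; adjusted p = 0.02, limma). Its call was lost without crypt replicate 12 (adjusted p = 0.065) or crypt replicate 21 (adjusted p = 0.086), in limma fits.

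The other 15 cholesterol enzymes did not pass, and 4 of them, Sqle, Hmgcs1, Cyp51 and Msmo1, had differences of 0.95 to 1.05 with overlapping groups. Sqle, the squalene epoxidase, was at 8.04, 8.34 and 9.20 in crypts 12, 21 and 41 and at 9.12, 10.43 and 9.20 in villi 12, 41 and V275. The difference was 1.05 ± 0.42 (SE; adjusted p = 0.093, limma), and only crypt 41 reached the level of the villi. Hmgcs1, the HMG-CoA synthase, differed by 0.97 ± 0.53 and passed without villus V275 (1.49; adjusted p = 0.0454). Cyp51, the lanosterol demethylase, differed by 0.96 ± 0.50 and Fdps, the farnesyl diphosphate synthase, by 0.32 ± 0.39, and both passed without crypt 41 (1.45 and 0.81; adjusted p = 0.0479 and 0.033, limma). Msmo1 differed by 0.95 ± 0.62, and the other 10 cholesterol enzymes by -0.43 (Lss) to 0.52 (Fdft1).

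Of the sterol sensors and carriers, Scap was lower in villus, at 8.70, 8.73 and 8.54 in crypts and 8.14, 7.58 and 7.69 in villi (difference -0.85 ± 0.18 SE; adjusted p = 0.0095, limma). The groups did not overlap. Srebf1 (0.29 ± 0.19 SE), Srebf2 (-0.11 ± 0.18 SE) and Stard4 (0.01 ± 0.23 SE) did not pass. Markers of stem, dividing and Paneth cells moved with these calls: 5 of 6 crypt markers were lower in villus, with Mki67 at -3.59 ± 0.35 (SE), and their summed signal was 30130 to 32510 in crypts and 1906 to 9590 in villi. All 5 enterocyte markers were higher in villus, with a summed signal of 326 to 408 in crypts and 18840 to 27310 in villi. Leukocyte markers (4 of 6 higher, 1 lower) had sums of 984 to 1031 and 1386 to 1850, and 1 of 3 adipocyte markers, Cidec, was higher in villus (sums 80.3 to 87.5 and 233 to 586) while the other 2 stayed below the 30th percentile in every array. The part of these cell types in the members' differences was not tested. Of the stromal markers 1 of 5 tested (Vim) was higher in villus, and the median difference of the tested markers of smooth muscle, endothelium, liver, enteric neurons and blood lay between -0.16 and 0.11 in each list.

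**Figure D2:**
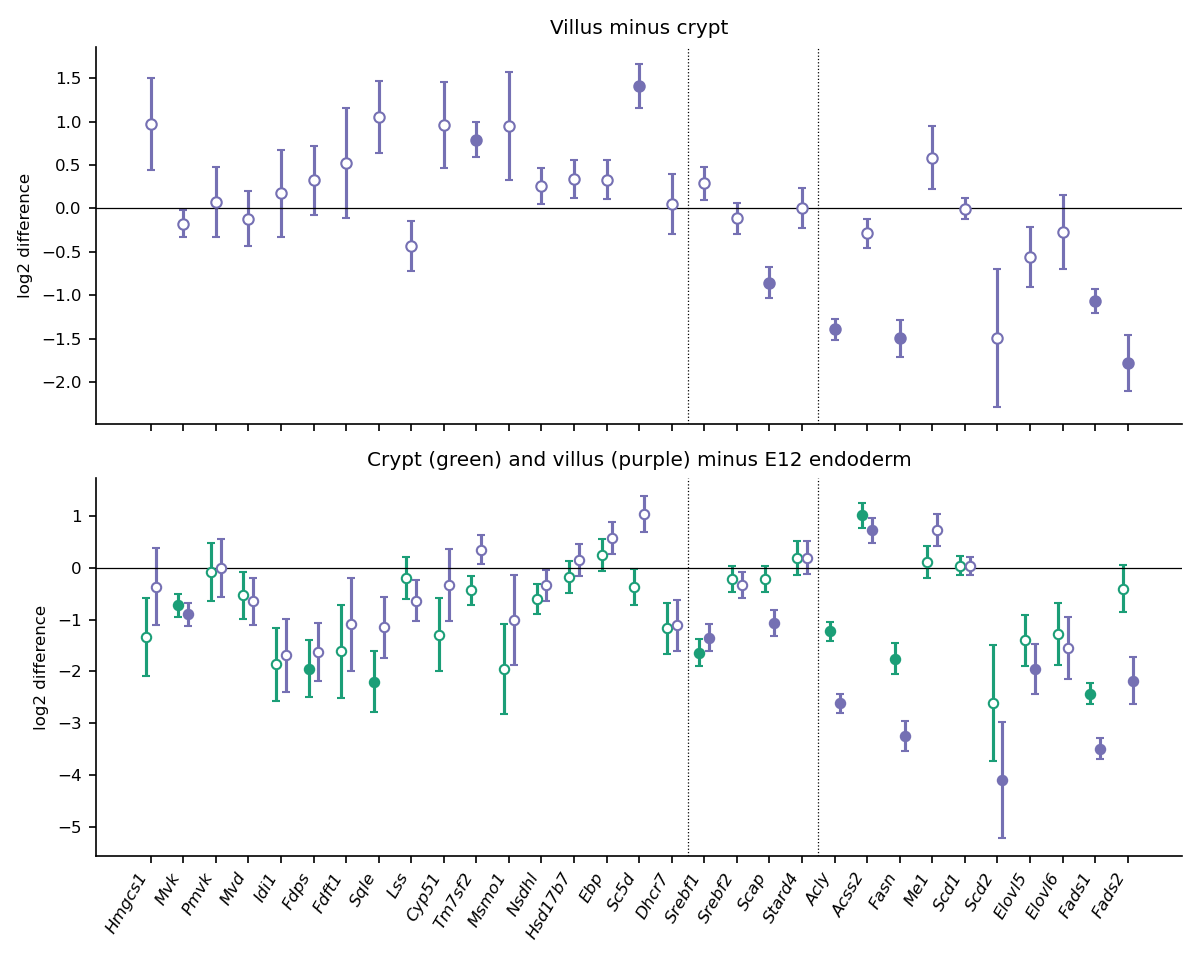
Log2 difference (points) with its standard error (bars) for 31 members, villus minus crypt above and crypt or villus minus the single E12 endoderm array below; filled points passed limma with an adjusted p under 0.05, and dotted lines part the cholesterol enzymes, the sterol sensors and carriers, and the fatty acid genes. In the upper panel Sc5d and Tm7sf2 are the filled points above 0, and Scap, Acly, Fasn, Fads1 and Fads2 those below.

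The cholesterol enzymes moved together between arrays of the same group, a pattern described here after its values were seen and given without a test. Crypt 41 had the highest signal of the 3 crypts for 17 of 17 cholesterol enzymes, where it was highest for 36.1% of all genes, and crypt 12 had the lowest for 15 of 17. Villus 41 was highest for 13 of 17 (31.3% of all genes) and villus V275 lowest for 11. The spread was wide: the median SD within a group was 0.47 in crypts and 0.54 in villi for these enzymes, against 0.19 and 0.19 for all genes. In crypt, 8 of 17 had an SD over 0.5, against 5.22% of all genes, and in villus 9 of 17, against 11.8%.

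Single enzymes show the size of these steps. Msmo1 was at 7.81, 8.60 and 9.66 in crypts 12, 21 and 41 and at 9.18, 10.91 and 8.83 in villi 12, 41 and V275. Fdft1, the squalene synthase, was at 7.78, 8.24 and 9.11 in the crypts and 9.04, 10.14 and 7.51 in the villi. Idi1 followed the same order in crypts, at 7.59, 8.22 and 9.18, and was at 8.19, 9.45 and 7.88 in the villi. In each of these 3 genes the range among villi or crypts was wider than the difference between the group means, and crypt 41 lay above at least 1 villus array.

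Mvd and the late enzymes Ebp, Sc5d and Dhcr7 did not have their highest villus level in villus 41. Dhcr7, which makes cholesterol from its last precursor, was lowest in villus 41, at 7.41, against 8.62 in villus 12 and 8.29 in V275. Ebp, the sterol isomerase, was also lowest in villus 41 (9.20 against 9.53 and 9.60), Sc5d ranged from 9.50 to 9.65, and Mvd, which makes isopentenyl diphosphate, was highest in villus 12 (8.19 against 7.93 and 7.16). Fatty acid genes split from the cholesterol enzymes in villi, where villus 12 was highest for 8 of 10, V275 for 0 and villus 41 for 2. In crypts, crypt 41 was highest for 7 of the 10.

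The labels number a crypt and a villus array 12 and another pair 41, without saying that a number marks 1 mouse. Within number 12 the villus array was above the crypt array by 1.67 for Hmgcs1, 1.26 for Fdft1, 1.08 for Sqle and 1.36 for Msmo1, and within number 41 by 1.06, 1.03, 1.23 and 1.25. For Dhcr7 the step was 1.05 within number 12 and -1.09 within number 41. For Scd2 it was 1.14 and -2.78, and for Elovl6 1.13 and -1.38, so these 3 genes went opposite ways in the like-numbered arrays. Fads1, by contrast, stepped by -1.07 and -1.11. The other called members also kept their sign in both numbers. Acly stepped by -1.39 and -1.40, Fasn by -0.89 and -1.855, and Fads2 by -0.97 and -2.275. Sc5d stepped by 1.77 and 0.78, Tm7sf2 by 0.64 and 1.07, and Scap by -0.56 and -0.95. Crypt 41 also had the highest median over 6 leukocyte markers, at 7.23 against 6.16 and 6.56 in crypts 12 and 21. The summed leukocyte signals lay close together, at 1003, 984 and 1031 in crypts 12, 21 and 41. The summed signal of 8 epithelial markers was highest in crypt 41 (34210 against 23080 and 26510) and in villus 41 (48320 against 40990 and 39450). Villus 41 had the lowest median over 5 enterocyte markers, at 10.8 against 11.9 and 12.5. It had the highest summed signal of the same markers, at 27310 against 18840 and 25600. The part of these markers in the order of the arrays was not tested.

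**Figure D3:**
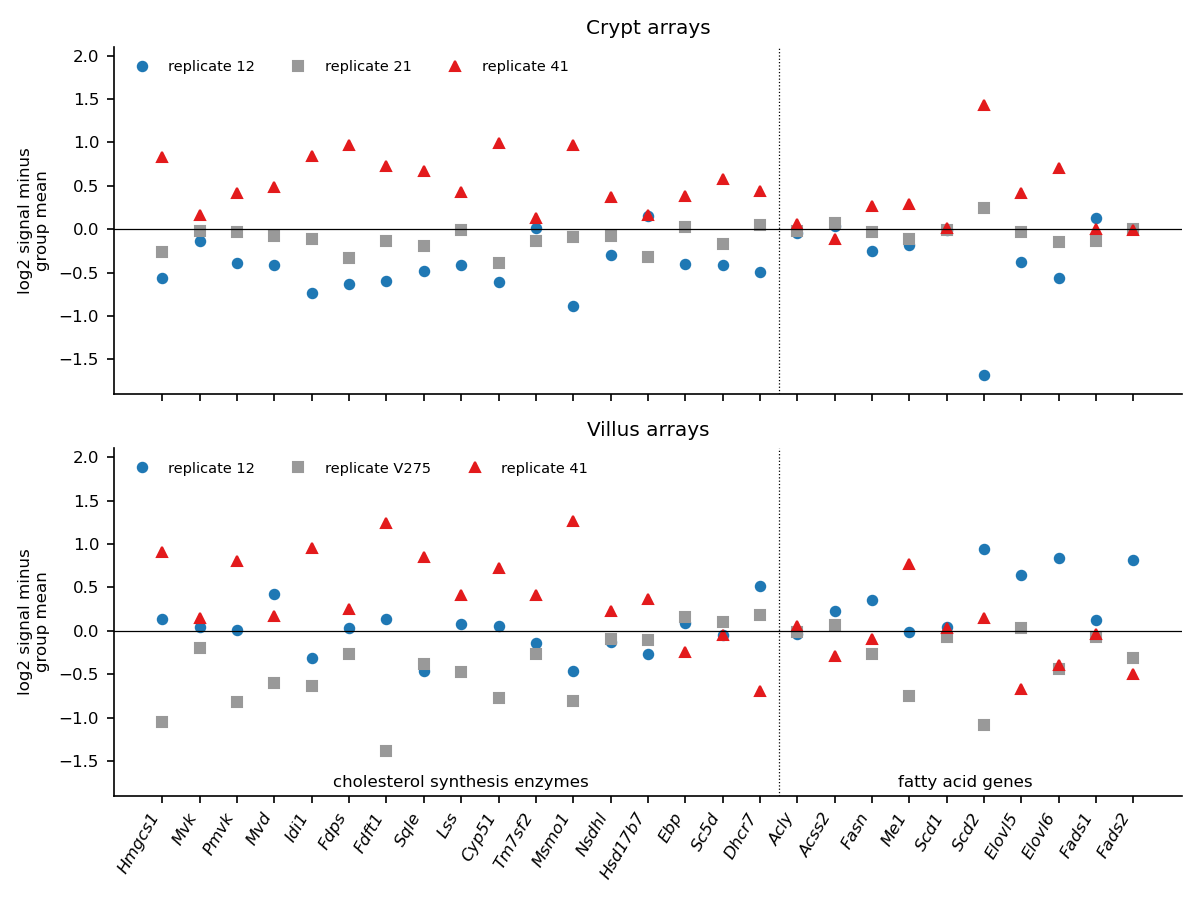
Log2 signal of each array minus the mean of its group, for 17 cholesterol synthesis enzymes and 10 fatty acid genes (dotted line between them), with crypt arrays above and villus arrays below. The triangles of replicate 41 lie highest for 17 of 17 cholesterol enzymes in crypt and 13 of 17 in villus, whereas villus 12 lies highest for 8 of 10 fatty acid genes.

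Between the E12 layers, the 6-array table asked where these chains are expressed before villi form, and most members were higher in endoderm. Of 32 members, 24 were called higher in endoderm (75%, against 27.7% of all 9441 genes tested) and 1 lower (3.12%, against 25.4%). Over all genes 2614 were higher and 2395 lower, and 3330 and 1956 with arrays centred on their median. All 17 cholesterol enzymes had a positive difference and 15 passed, with a median of 0.74, against 0.03 for all genes. Of the sterol sensors and carriers 3 of 4 passed, and of the fatty acid genes 6 of 11 were higher and 1 lower, with a median of 0.41. The median SD of the cholesterol enzymes within a layer was 0.17 in endoderm and 0.13 in mesenchyme, against 0.135 and 0.11 for all genes.

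Among the 15 called cholesterol enzymes were Hmgcs1, which acts early in the chain, and Dhcr7, which ends it. Ebp was at 8.50, 8.33 and 8.34 in endoderm replicates 2, 3 and 4 and at 6.76, 6.80 and 6.93 in mesenchyme (2.95-fold; log2 difference 1.56 ± 0.09 SE; adjusted p = 2.3e-06, limma). Fdft1 was at 11.15, 11.15 and 11.12 in endoderm and 9.52, 10.11 and 10.00 in mesenchyme (difference 1.26 ± 0.15 SE), Tm7sf2 differed by 1.29 ± 0.11, Dhcr7 by 1.14 ± 0.13, and Idi1 by 1.01 ± 0.16. None of these groups overlapped, and each had an adjusted p of at most 0.000904 (limma). Hmgcs1 was at 12.42 to 12.47 in endoderm and 11.56 to 11.86 in mesenchyme (difference 0.76 ± 0.10 SE).

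The smallest steps among the called enzymes were at Mvk, the mevalonate kinase (0.22 ± 0.08 SE; adjusted p = 0.045, limma), Nsdhl (0.43 ± 0.10) and Cyp51 (0.50 ± 0.15). Mvk passed the test narrowly and not with the replicate number as a block (adjusted p = 0.064, limma), nor in any fit that left out 1 array. Cyp51, Msmo1 and Hsd17b7, a sterol ketoreductase, each lost the call without 1 array in 3 or 4 of 6 such fits, among them the fits without mesenchyme 2 (adjusted p = 0.080, 0.064 and 0.081, limma) and without endoderm 4 (adjusted p = 0.082, 0.0685 and 0.054, limma). Mvd did not pass (0.34 ± 0.13; adjusted p = 0.059) but did without mesenchyme 4 (adjusted p = 0.031) or endoderm 3 (adjusted p = 0.0325).

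Fdps had 1 low endoderm array and did not pass: it was at 9.97, 10.85 and 10.93 in endoderm replicates 2, 3 and 4 and at 10.04 to 10.16 in mesenchyme (difference 0.50 ± 0.23 SE; adjusted p = 0.11, limma). Without endoderm 2 the difference was 0.80 (adjusted p = 0.00016, limma). Endoderm 2 was also more than 0.5 below both other endoderm arrays in 10 of the 62 member probe sets and more than 0.5 above them in 0. Over all genes, each read at 1 probe set, it was that far below in 2.93% and above in 3.26%. The member count takes every probe set, so the shares are in unlike units. At the probe sets that stood for the members, endoderm 2 was that far below at Fdps, Msmo1 and Acaca. At Scd2, endoderm 2 read 9.31 against 11.01 and 11.08 in the second probe set and 7.17 against 9.21 and 9.79 in the third. In the first it read 12.49 against 12.62 and 12.61, so the low reading was not at every probe set of that gene.

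Among the sensors and carriers, Stard4, which moves cholesterol between membranes, had the largest rise of all members at the probe sets that stood for them. It was at 10.13, 10.34 and 10.56 in endoderm and 8.35, 8.80 and 8.90 in mesenchyme (3.16-fold; log2 difference 1.66 ± 0.17 SE; adjusted p = 5.8e-05, limma). Its second probe set differed by 1.19, and the layers overlapped there, with endoderm 2 at 8.39 and mesenchyme 4 at 8.50. Srebf1 was at 10.12, 9.69 and 9.67 in endoderm and 8.55 to 8.63 in mesenchyme (difference 1.23 ± 0.13 SE; adjusted p = 7.8e-05, limma), whereas Srebf2 differed by 0.22 ± 0.09 (adjusted p = 0.066, limma), with 0.74 at its second probe set. Srebf2 passed without endoderm 2 (0.26; adjusted p = 0.0277) or when its probe sets were summarised by their median (0.48; adjusted p = 0.00176). Scap was higher by 0.52 ± 0.12 (adjusted p = 0.0063, limma).

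The fatty acid genes were less uniform. Fasn was at 10.89, 10.59 and 10.69 in endoderm and 9.79, 9.49 and 9.65 in mesenchyme (difference 1.08 ± 0.12 SE; adjusted p = 8.9e-05, limma). Acly (0.90 ± 0.11), Fads2 (0.76 ± 0.11), Scd2 (0.55 ± 0.10), Elovl5 (0.41 ± 0.10) and Elovl6 (0.40 ± 0.11) were also higher. The other 2 probe sets of Scd2 differed by 0.05 and 0.00. With the median over probe sets Scd2, Acly and Fads2 lost their calls (adjusted p = 0.93, 0.49 and 0.065, limma). At a second probe set of each, endoderm 2 read below endoderm 3 and 4: 9.31 against 11.01 and 11.08 at Scd2, 8.19 against 9.45 and 9.47 at Acly, and 7.94 against 9.10 and 9.41 at Fads2. Elovl5 lost its call when probe sets that may match several transcripts were left out (0.25; adjusted p = 0.102, limma). Elovl6 lost its call without mesenchyme 3 (adjusted p = 0.063, limma) or mesenchyme 4 (adjusted p = 0.065, limma).

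Scd1 was the exception in direction. It was at 6.04, 5.38 and 5.76 in endoderm and 7.44 to 8.0 in mesenchyme, 3.79-fold lower in endoderm (log2 difference -1.92 ± 0.20 SE; adjusted p = 6.9e-05, limma), with -0.65 at its second probe set, whose values of 3.77 to 4.60 lay below the 30th percentile in all 6 arrays. The paralogues Scd1 and Scd2 thus differed in opposite directions at their brightest probe sets. Fads1 (0.08 ± 0.11 SE), Acss2 (-0.07 ± 0.08 SE), Me1 (-0.11 ± 0.09 SE) and Acaca (0.54 ± 0.26 SE) did not pass, and Acaca passed without endoderm 2 (0.83; adjusted p = 0.0083, limma).

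The pair of arrays from 35 fetuses, which took no part in this fit, gave the same sign for 24 of the 25 called members and 28 of all 32. Over all genes called in the 6-array table the share was 94.3%. Hsd17b7 was the called member that differed (-0.04 in the pair against 0.59). Stard4 was 1.58 higher in endoderm in the pair, Ebp 1.44, Fdft1 1.76, Srebf1 1.47 and Fasn 1.11, and Scd1 was -0.76. Each layer has 1 array there, so the pair gives values with no test.

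**Figure D4:**
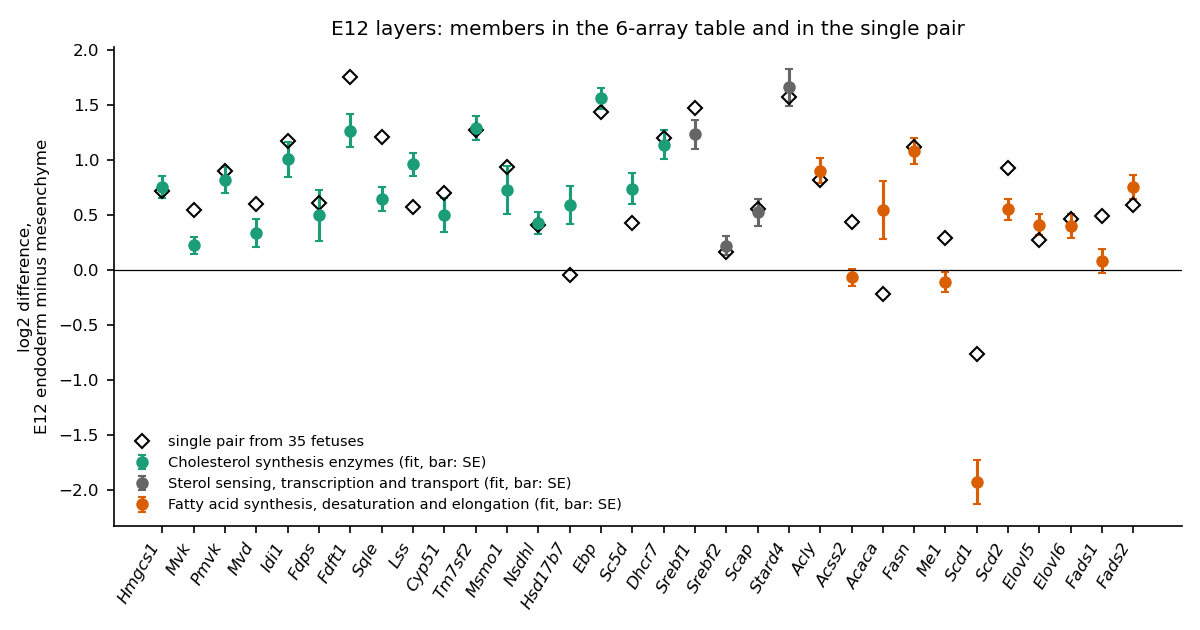
Log2 difference between E12 endoderm and mesenchyme for 32 members: filled points are the fit of 3 arrays per layer with its standard error, and open diamonds the single pair from 35 fetuses. Every cholesterol enzyme lies above 0 in the fit, Stard4 and Ebp reach 1.66 and 1.56, and Scd1 lies at -1.92.

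Markers of other cells differed greatly between the E12 layers. Stromal (8 of 8), smooth muscle (6 of 6), endothelial (5 of 5), enteric neuron and glia (4 of 4) and erythroid (4 of 4) markers were lower in endoderm, and epithelial markers (8 of 8) were higher. Of 5 liver markers 3 were tested and 2 were higher in endoderm, Afp at 9.86 against 4.02 and Ttr at 11.40 against 7.19, with summed signals of 3333 to 4183 in endoderm and 168 to 304 in mesenchyme. The summed stromal signal was 1657 to 2352 in endoderm and 27170 to 29970 in mesenchyme, and none of 3 adipocyte markers passed the 30th percentile in any E12 array of that table. The part of these cells in the members' differences was not tested.

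The last comparisons set adult crypt and villus against E12 endoderm. They rest on a single E12 endoderm array, assumed to vary like the other groups, which both comparisons share. Of 31 members, 1 was higher in crypt (3.23%, against 8.2% of all genes) and 7 were lower (22.6%, against 15.1%). Over all genes 827 were higher and 1520 lower in crypt, and 1014 and 1170 with quantile normalization. In villus 1 was higher (3.23%, against 17% of all genes) and 9 were lower (29%, against 22.1%). The median difference of the 10 fatty acid genes was -1.25 in crypt and -2.07 in villus, and that of the 17 cholesterol enzymes -0.73 and -0.63, while all genes had medians of 0.05 and 0.13.

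In villus the largest falls from E12 endoderm were at the fatty acid genes Scd2, Fads1, Fasn and Acly. In crypt Scd2 and Fads1 also fell most, but Sqle, Msmo1, Fdps and Idi1 came next, before Fasn and Acly. Of these, Scd2, Msmo1 and Idi1 were not called in crypt. Fads1 was at 10.40 in E12 endoderm, 7.97 ± 0.13 in crypt and 6.91 ± 0.11 in villus (SD, n = 3), a difference of -2.43 ± 0.20 and of -3.49 ± 0.20 (SE; adjusted p = 0.00034 and 4.4e-05, limma), or 5.38-fold and 11.2-fold. Fasn was at 10.54, 8.79 ± 0.26 and 7.29 ± 0.32 (SD, n = 3), 3.38-fold lower in crypt and 9.50-fold lower in villus (adjusted p = 0.0058 and 0.00019, limma). Acly was at 10.76, 9.53 ± 0.06 and 8.14 ± 0.05 (SD, n = 3), 2.34-fold and 6.14-fold lower (adjusted p = 0.0031 and 7.4e-05, limma). These 3 genes stood in the same order, E12 endoderm over crypt over villus, with no overlap between groups. That order of means was held by 25% of all genes tested. E12 endoderm is a single array here, so no overlap with it means only that its value lay outside the range of the adult group. Uncalled members could also meet this, such as Scd1 in crypt, with a difference of 0.04.

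Scd2 was at 11.61 in E12 endoderm, and its difference was -2.61 ± 1.12 in crypt (adjusted p = 0.13, limma) and -4.10 ± 1.12 in villus (adjusted p = 0.023, limma), 17.2-fold. It passed in crypt with the median of its probe sets (-3.17; adjusted p = 0.0277, limma), and its SD was 1.57 in crypt and 1.02 in villus. Elovl5 and Fads2 passed in villus (-1.96 ± 0.49 and -2.18 ± 0.45; adjusted p = 0.015 and 0.0071, limma), and in crypt they differed by -1.40 ± 0.49 and -0.40 ± 0.45. Elovl5 passed in crypt without villus 12 (adjusted p = 0.038) or villus 41 (adjusted p = 0.0174), which leaves the difference as it was and changes the pooled spread and the genes tested. It also passed with the median of its probe sets (-1.62; adjusted p = 0.0416, limma) and at its second probe set (-1.85; adjusted p = 0.0233, limma). Elovl6 differed by -1.27 ± 0.60 in crypt and -1.54 ± 0.60 in villus and passed in villus without villus 12 (-1.96; adjusted p = 0.015, limma).

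Acss2, which makes acetyl-CoA from acetate, was the member called higher in both comparisons. It was at 6.83 in E12 endoderm, 7.84 ± 0.10 in crypt and 7.55 ± 0.27 in villus (SD, n = 3), 2.02-fold and 1.65-fold higher (adjusted p = 0.021 and 0.046, limma). The calls were narrow: in crypt the call was lost without crypt 12 or crypt 21 (adjusted p = 0.054 and 0.069, limma), and in villus without any 1 of the 6 adult arrays except villus 41 (adjusted p = 0.059 to 0.0965, limma), and likewise when the median over its probe sets was used (adjusted p = 0.0572, limma).

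Srebf1 was at 9.93 in E12 endoderm, 8.30 ± 0.16 in crypt and 8.58 ± 0.30 in villus (SD, n = 3), 3.11-fold and 2.55-fold lower (adjusted p = 0.00465 and 0.00524, limma). Scap was lower in villus (-1.07 ± 0.25 SE; adjusted p = 0.012, limma) and not called in crypt (-0.22 ± 0.25 SE). Srebf2 differed by -0.22 ± 0.25 and -0.33 ± 0.25 and Stard4 by 0.19 ± 0.32 and 0.19 ± 0.32 (SE), so neither passed.

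Among the cholesterol enzymes, Sqle and Fdps were lower in crypt. Sqle was at 10.73 in E12 endoderm against 8.53 ± 0.60 in crypt (SD, n = 3), a difference of -2.20 ± 0.59 (SE; adjusted p = 0.032, limma), and at 9.58 ± 0.73 in villus (difference -1.15 ± 0.59 SE; adjusted p = 0.16, limma). Fdps differed by -1.95 ± 0.55 in crypt (adjusted p = 0.040, limma) and -1.63 ± 0.55 in villus (adjusted p = 0.0505, limma), where it passed without crypt 12, crypt 41 or villus 41 (adjusted p = 0.0473, 0.00456 and 0.0383, limma). Both crypt calls were lost without crypt 12 (adjusted p = 0.085 and 0.087) or crypt 21 (adjusted p = 0.093 and 0.11), and that of Fdps also without villus 12 (adjusted p = 0.051) or V275 (adjusted p = 0.052).

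Mvk was lower in both (-0.73 ± 0.22 and -0.90 ± 0.22 SE; adjusted p = 0.0496 and 0.014, limma), and its crypt call was lost in 4 of the 6 fits without 1 adult array, those without crypt 12 or 21 or villus 12 or V275 (adjusted p = 0.059 to 0.12). Idi1 was at 10.20 in E12 endoderm and differed by -1.86 ± 0.70 and -1.69 ± 0.70, and Msmo1 by -1.95 ± 0.87 in crypt (SE), and neither passed. Without villus 41, which leaves the crypt differences as they were, Idi1, Msmo1 and Dhcr7 passed in crypt (adjusted p = 0.026, 0.034 and 0.034, limma), and in villus Idi1 and Sqle passed (-2.16 and -1.57; adjusted p = 0.013 and 0.018). In villus Mvd differed by -0.65 and did not pass, but passed without crypt 41 or villus 12 (-0.88 and -0.98; adjusted p = 0.0369 and 0.0269, limma), fits in which its other probe set stood for the gene. Sc5d differed by 1.04 ± 0.35 in villus (SE; adjusted p = 0.0502, limma) and passed without crypt 12 or crypt 41 (adjusted p = 0.0425 and 0.00788, limma). Ebp differed by 0.24 ± 0.31 and 0.57 ± 0.31 (SE).

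Some markers of other cells also differed between the E12 endoderm array of this table and the adult arrays. Its summed stromal signal was 2047, against 637 to 735 in crypts and 685 to 804 in villi, with Vim at -3.74 ± 0.29 in crypt minus E12 endoderm (SE), and its summed liver signal was 1902, against 484 to 582 and 522 to 569. Vim was the 1 stromal marker of 5 tested that was lower in crypt, the other 4 differing by -0.12 to 0.31, and of 5 liver markers Afp and Ttr were lower (-3.42 and -2.79) while Apoh was higher (0.76). The summed leukocyte, endothelial and enteric neuron signals of the E12 endoderm array (574.5, 367.7 and 335.4) were below those of every adult array. Of 6 crypt markers, 2 were higher and 1 lower in crypt than in E12 endoderm (median 0.16), and 2 were higher and 3 lower in villus (median -0.93). The proliferation marker Top2a had the largest fall of the list, at -1.69 ± 0.39 in crypt and -4.18 ± 0.39 in villus (SE). Epithelial markers had a summed signal of 18190 in the E12 endoderm array, against 23080 to 34210 in crypts and 39450 to 48320 in villi. Of 8 epithelial markers 2 were higher in crypt and 4 in villus, and 0 were lower. Of 5 enterocyte markers 1 was higher and 1 lower in crypt, and all 5 were higher in villus. The part of these signals in the members' differences was not tested.

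Other genes of the same pathways, from lists that hold no member, moved in both directions. Of 12 other sterol genes tested between villus and crypt, 3 were higher (25%, against 16.9% of all genes) and 2 lower (16.7%, against 15%). Their median difference was -0.05. Among them Insig2, which holds the SREBP complex in the endoplasmic reticulum, was at 1.59 ± 0.34 and Lbr, a C14 sterol reductase of the nuclear envelope, at -1.86 ± 0.28 (SE; adjusted p = 0.0102 and 0.0027, limma). Insig2 lost its call without crypt 21 (adjusted p = 0.052). Lbr and the member Tm7sf2, which catalyse the same step, thus differed in opposite directions. Between the E12 layers 3 of 11 were higher (27.3%, against 27.7% of all genes) and 1 lower (9.09%, against 25.4%). Lbr led in endoderm (0.53 ± 0.13 SE).

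Against E12 endoderm, 1 of 12 other sterol genes was higher in crypt (8.33%, against 8.2% of all genes) and 1 lower (8.33%, against 15.1%). In villus 3 were higher (25%, against 17%) and 3 lower (25%, against 22.1%), with Lbr at -2.86 ± 0.40 and Insig2 at 1.95 ± 0.48 (SE). Of 16 other fatty acid genes, 3 were higher in villus than in crypt (18.8%, against 16.9% of all genes) and 6 lower (37.5%, against 15%). Their median difference was -0.23. Acsl5, which activates fatty acids for use, was 6.03-fold higher, and Gpam, the first enzyme of glycerolipid synthesis, 3.49-fold lower (adjusted p = 0.000497 and 0.0024, limma). Between the E12 layers 11 of 18 were higher (61.1%, against 27.7% of all genes) and 3 lower (16.7%, against 25.4%). Elovl7, an elongase, was at 2.85 ± 0.10 and Acsl5 at 1.92 ± 0.09 (SE).

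Against E12 endoderm, 2 of 17 other fatty acid genes were higher in crypt (11.8%, against 8.2% of all genes) and 1 lower (5.88%, against 15.1%). In villus 5 were higher (29.4%, against 17%) and 7 lower (41.2%, against 22.1%). Mlxipl, the carbohydrate-responsive transcription factor of this chain, was at 3.05 ± 0.64 in crypt, and Gpam at -2.36 ± 0.38 in villus (SE; adjusted p = 0.014 and 0.0022, limma). NADPH is the reducing agent of both chains. Of 7 genes of its supply 6 were higher in E12 endoderm than in mesenchyme (85.7%, against 27.7% of all genes), with a median of 0.80. Me2 (1.67 ± 0.13 SE) and Mthfd1 (1.20 ± 0.10 SE) led them. Between villus and crypt 1 was higher (Taldo1, 1.22 ± 0.27 SE) and 1 lower (Mthfd1, -0.87 ± 0.20 SE, with adjusted p = 0.053 without crypt 12, limma). Each is 14.3% of the 7, against 16.9% and 15% of all genes. Against E12 endoderm 0 of 7 passed in crypt in either direction by limma (0 higher and 1 lower at an unadjusted p under 0.05). Of all genes 8.2% were higher and 15.1% lower there. In villus Taldo1 was higher (1.62 ± 0.38 SE) and Mthfd1 lower (-1.74 ± 0.28 SE), each 14.3% of the 7, against 17% and 22.1% of all genes.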

How the data were processed

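RNA was extracted on columns with DNase digestion, per the labels' protocols. The deposited values are log2 signals that the authors made with RMA, which corrects background, normalizes arrays together and summarises probe sets, per the submitters' processing notes. For the RMA version and the genome build, the sources used here give nothing. The 2 tables were normalized separately, so each test stayed within 1 table, and RMA compresses differences between dim signals. Arrays carry no depth, so precision depends on how many arrays a group has and on the spread between them.

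Probe sets with 1 gene symbol (20380 of 22690) were used, and each gene was represented by its probe set of highest mean in the fitted arrays. Genes above the 30th percentile of their table in at least 3 arrays were tested with limma 3.58.1 in R 4.3.3 (lmFit, then eBayes), p-values being adjusted by Benjamini-Hochberg across every tested gene, with a threshold of 0.05. Villus against crypt used the 6 adult arrays, the E12 layers the 6-array table, and both comparisons with E12 endoderm 1 fit of the 8 arrays. Each adult array is labelled as coming from 1 mouse, but the labels do not say that the 6 arrays are from different mice, and the E12 arrays are pools, so p-values measure only the spread between these samples, which may be technical. The fit was tested on simulated data. All members may be named, and of each pathway list at most the 3 largest called changes per direction. Alternatives covered the choice of probe set, filter, normalization, prior, block and arrays.

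The members and lists were chosen with earlier results of these data known. Deviations of like-numbered E12 arrays correlated across genes at 0.21, 0.23 and 0.11, over the 0.1 set for pairing, and the numbers come from the titles, but unlike-numbered endoderm 3 and mesenchyme 4 also correlated at 0.13. No 2 arrays held identical values.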

Additional observations from a re-analysis of the deposited data

How the results depend on the processing

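Of the called members, 2 of 7 between villus and crypt kept their call in all alternatives, as did 16 of 25 between the E12 layers, 4 of 8 in crypt against E12 endoderm and 9 of 10 in villus against E12 endoderm. A direction is read only from called values, and no member reversed. Of the uncalled members 9, 3, 5 and 5 changed sign in some alternative. Leaving out 1 array moved the members called higher in villus from 2 to between 1 and 4, those higher in crypt than in E12 endoderm from 1 to between 0 and 1, those lower there from 7 to between 4 and 11, and those higher in villus than in E12 endoderm from 1 to between 0 and 1. The last count was 2 with a filter at the 50th percentile and 2 with quantile normalization. Mbtps1, called lower against E12 endoderm, had differences of 0.17 in crypt and 0.10 in villus with the median of its probe sets. Centring the arrays moved the median of all genes between the E12 layers to 0.15. Quantile normalization gave 1515 higher and 1757 lower in villus, against 1686 and 1496.

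The adult replicate numbers do not settle pairing. Over 2 pairs, the same-number correlations were 0.16, over the 0.1 set for pairing, and 0.069, under it. Unlike-numbered villus and crypt arrays correlated at -0.1 to 0.078. With the replicate number as a block, which leaves 2 pairs, 4 members were higher in villus in place of 2 and 2 lower in place of 5. Hmgcs1 (1.36), Fdft1 (1.15), Sqle (1.15) and Msmo1 (1.31) then passed, at adjusted p of 0.036, 0.039, 0.037 and 0.028 by limma, while Sc5d, Tm7sf2, Scap, Fasn and Fads2 did not, at adjusted p of 0.063, 0.085, 0.11, 0.053 and 0.053 by limma. Between the E12 layers the block changed the call of Mvk and of no other member.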
